A study of Mus musculus with 9 samples.

Results

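Bsph1, Bsph2 and Spam1 belong to families of proteins found on the sperm surface, and they are 3 of the 32195 genes in the single-cell table of the mouse epididymis analysed here. They were taken by gene symbol and not by a cutoff on their values, but with earlier results of these data known, and all 3 were present. Bsph1 and Bsph2 (binder of sperm homologs) are small secreted proteins of the family first described in seminal plasma. The family is defined by fibronectin type II domains, and several of its members bind choline phospholipids of the sperm membrane and take part in capacitation, the ripening that lets sperm fertilise. These activities are not shared by every member. Spam1 (also called PH-20) is a hyaluronidase anchored to the sperm membrane that digests the hyaluronan-rich coat around the egg. It is made by germ cells in the testis, and synthesis in the epididymis with transfer to passing sperm has also been described.

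The epididymis is the coiled duct in which sperm mature as they pass through the caput, the corpus and the cauda. Untreated wild-type C57BL/6J mice (C57BL/6 in the sample labels) were taken at P42 (42 days of age, when the first wave of sperm is in the duct) or P56 (56 days), with 1 pool of mice at P42 and 2 pools at P56. The caput, corpus and cauda of each pool were sequenced separately, giving 9 libraries, so caput, corpus and cauda libraries of 1 pool come from the same mice, and every P42 group is 1 library. Each library held 4971 to 4997 cell barcodes and 23114756 to 50655384 UMIs (unique molecular identifiers, each standing for 1 captured RNA molecule), and 143 of 44631 different barcodes occurred in 2 or more libraries.

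After limits on detected genes, UMIs and mitochondrial share, and without globin-rich cells, 41036 cells were used, and cell types were called by gates on marker genes. A gated type needed at least 3 of its markers detected and all its markers together at 3 times or more the level expected from the library. Principal cells, the secretory majority of the epithelium, needed at least 3 principal markers detected and these markers together at 0.5 times or more that level. They also had to show no second type, taken as 2 or more of its markers detected and together at 2 times or more. This gave 20305 principal cells (844 to 3069 a library), 3536 clear/narrow cells, 1884 macrophage/monocyte cells, 1597 basal cells and 538 sperm cells (5 to 169 a library). In the sperm, basal, clear/narrow and macrophage/monocyte gates every marker was at least 2-fold above its level in the other gated cells, as were 12 of the 16 principal markers in the principal gate. The gates were set on these same markers, so this excess was built in and is no independent support for the types. Neither free RNA nor doublets were removed. Levels are given as CPM, the UMIs of a gene scaled to a fixed total of UMIs over all cells of a gate in a library. A count of 0 is said to allow up to the CPM of 3 UMIs, which is below the upper end of its 95% Poisson interval. The p-values between segments measure how far the segment differences varied between pools. Those between ages measure the spread between the 2 P56 pools, whose 3 segments share mice but were fitted as independent. Those between cell types measure the spread between libraries, which share mice within a pool and are not independent. The p-values between ages and between cell types may therefore be too small.

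Bsph1 lies on chromosome 7 at 13450841 to 13473449 on the plus strand of GRCm38, with 5 exons, and Bsph2 lies 81414 bases farther along at 13554864 to 13571067 on the minus strand, also with 5 exons. Spam1 lies on chromosome 6 at 24791188 to 24801048 on the plus strand, between the hyaluronidase genes Hyal6 and Hyal5. No annotated gene overlaps any of the 3. The coding sequences below, from GENCODE M21 transcripts, are shown because related genes could share reads, with capitals for the bases that differ within a pair.
Bsph1, coding bases 274 to 393: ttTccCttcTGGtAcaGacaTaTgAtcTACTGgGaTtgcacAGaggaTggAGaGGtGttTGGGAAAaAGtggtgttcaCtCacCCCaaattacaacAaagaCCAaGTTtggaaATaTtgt
Bsph2, coding bases 259 to 378: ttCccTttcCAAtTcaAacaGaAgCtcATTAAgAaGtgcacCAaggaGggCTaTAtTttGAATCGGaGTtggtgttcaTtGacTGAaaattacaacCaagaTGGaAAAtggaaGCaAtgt
Spam1, coding bases 912 to 1061: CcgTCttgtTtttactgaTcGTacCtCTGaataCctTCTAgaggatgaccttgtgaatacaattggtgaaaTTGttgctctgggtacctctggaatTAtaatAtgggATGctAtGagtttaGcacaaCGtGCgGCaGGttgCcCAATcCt
Hyal5, coding bases 912 to 1061: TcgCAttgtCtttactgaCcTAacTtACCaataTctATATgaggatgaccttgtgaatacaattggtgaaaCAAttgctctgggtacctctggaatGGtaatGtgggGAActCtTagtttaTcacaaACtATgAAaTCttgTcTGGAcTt
In this best ungapped stretch of 120 bases, Bsph1 and Bsph2 were identical at 71 bases (59.2%), and the longest exact run common to both transcripts was 10 bases. Spam1 and Hyal5 were closer, with 964 of 1355 aligned coding bases identical (71.1%) and a longest exact run of 31 bases, which lies within the stretch shown. In the last 300 bases of the transcripts, where poly(A)-primed reads concentrate, the longest exact run was 8 bases for Bsph1 and Bsph2 and 11 bases for Spam1 and Hyal5.

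Bsph1 RNA was highest in the caput, as read in principal-gated cells. Its level in caput principal cells was 107 CPM at P42, 153 CPM in P56 replicate 1 and 146 CPM in P56 replicate 2, from 1417, 3108 and 2664 UMIs. In the corpus it was 2.38 CPM at P42 (21 UMIs), 4.99 CPM in P56 replicate 1 (85 UMIs) and 0.356 CPM in P56 replicate 2 (6 UMIs). In the cauda 3 UMIs were counted at P42, 0 in P56 replicate 1, which allows up to 0.148 CPM, and 3 in P56 replicate 2. The mean was 135 ± 25.0 CPM in the caput, 2.58 ± 2.32 CPM in the corpus and 0.320 ± 0.442 CPM in the cauda (SD, n = 3 libraries each).

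Bsph2 RNA was highest in the corpus, with a lower level in the cauda. Its level in corpus principal cells was 1306 CPM at P42, 2239 CPM in P56 replicate 1 and 2100 CPM in P56 replicate 2, from 11528, 38125 and 35403 UMIs. In the cauda it was 86.3 CPM at P42, 373 CPM in P56 replicate 1 and 201 CPM in P56 replicate 2. In the caput it was 2.86, 3.79 and 3.89 CPM in the same order of pools, from 38, 77 and 71 UMIs. The mean was 1882 ± 503 CPM in the corpus, 220 ± 144 CPM in the cauda and 3.51 ± 0.570 CPM in the caput (SD, n = 3 libraries each). The principal-gated cells of the P42 cauda held more summed fibroblast-marker RNA (19163 CPM) than principal-marker RNA (13230 CPM). The P42 cauda value is therefore not a level of principal cells alone.

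**Figure D1:**
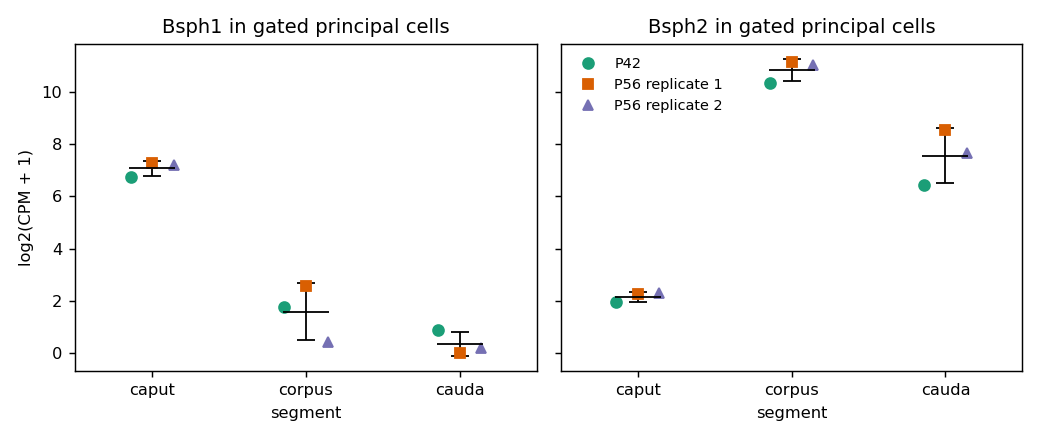
Levels of Bsph1 (left) and Bsph2 (right) in gated principal cells as log2(CPM + 1), by segment, with 1 point a library and the mean ± SD of 3 libraries in black. Bsph1 lies between 107 and 153 CPM in the caput and at or below 4.99 CPM elsewhere, while Bsph2 is highest in the corpus (1306 to 2239 CPM) and intermediate in the cauda (86.3 to 373 CPM).

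The segments were compared with edgeR's quasi-likelihood test on UMI sums of principal cells, with the pool as a block and Benjamini-Hochberg adjustment over 16610 genes, and a gene was called at an adjusted p under 0.05 with a log2 fold change of at least 1. Bsph1 was 58.4-fold lower in the corpus than in the caput (log2 fold change -5.87 ± 0.68 SE, edgeR adjusted p = 0.000413). Its size moved with the pools used, from -5.15 without P56 replicate 2 to -6.79 without P56 replicate 1. Bsph2 was 563-fold higher there (log2 fold change 9.14 ± 0.50, edgeR adjusted p = 1.38e-05). Both of the 2 members tested were therefore called between corpus and caput, as were 25.4% of all genes tested, and Spam1 was below the low-count filter.

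Between cauda and corpus, where 12.2% of all genes were called, Bsph2 fell 8.93-fold (log2 fold change -3.16 ± 0.38, edgeR adjusted p = 0.00182). Bsph1 was lower still in the cauda (log2 fold change -3.87 ± 1.09, edgeR adjusted p = 0.0494). This Bsph1 call was lost without either P56 pool, with a log2 fold change of -1.85 and an edgeR adjusted p of 0.441 without P56 replicate 1, and -4.56 and 0.0826 without P56 replicate 2. Between cauda and caput, where 26.2% of all genes were called, Bsph1 was lower (log2 fold change -9.74 ± 0.93, edgeR adjusted p = 0.000165) and Bsph2 was 63.0-fold higher (log2 fold change 5.98 ± 0.45, edgeR adjusted p = 5.37e-05). The Bsph1 difference was -10.70 without the P42 pool and -8.64 without P56 replicate 1. Markers of other types moved between the segments in these cells too, and the types with at least 4 markers called in 1 direction are given. Between corpus and caput 4 of 9 endothelial, 4 of 7 ciliated and 4 of 6 tested myoid markers were lower. Between cauda and caput 5 of 7 fibroblast markers were higher, and 4 of 9 endothelial, 4 of 7 ciliated and 4 of 7 tested clear/narrow markers were lower. Between cauda and corpus 4 of 6 tested myoid markers were higher. Their part in the members' differences was not tested.

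The P56 replicate 1 corpus library held 85 of the 112 Bsph1 UMIs of corpus principal cells. Other genes that were higher in the caput than in the corpus differed in which corpus library they were highest. The lipocalin gene Lcn5 was highest in the same library, at 2446 CPM, against 1516 CPM in the P42 corpus and 475 CPM in corpus P56 replicate 2, and Defb30, Cst12 and Gpx5 had the same order. Lypd8, Defb18, Lcn8, Lcn9 and Cst8 were instead highest in the P42 corpus, with Lcn8 at 26.3 CPM there, 19.0 CPM in P56 replicate 1 and 9.25 CPM in P56 replicate 2. The part of other caput RNA in the Bsph1 value was not tested.

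Within the caput, Bsph1 was unevenly spread. Principal cells were divided by which of 3 gene pairs led them relative to the library mean, a division chosen after the data were seen: Lypd8 and Defb18, Cst12 and Lcn8, or Lcn5 and Defb30. In cells led by Lcn5 and Defb30 the Bsph1 level was 292 CPM at P42 (95% Poisson interval 270 to 314), 451 CPM in P56 replicate 1 (429 to 473) and 355 CPM in P56 replicate 2 (337 to 374). In cells led by Lypd8 and Defb18 it was 80.9, 107 and 120 CPM, and in cells led by Cst12 and Lcn8 it was 57.3, 76.1 and 76.0 CPM. Cells of the Lcn5 and Defb30 group therefore held the highest level in all 3 libraries. The 300 such cells among 1679 at P42 carried 48.3% of the library's principal-cell Bsph1 UMIs, and the 592 among 3069 and 574 among 2419 at P56 carried 53.6% and 52.8%. Intervals here and below cover counting error only.

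For Bsph2, with 38 to 77 UMIs a library in the caput, a different group was highest in each library. Its level was 1.70, 4.33 and 4.29 CPM in the cells led by Lcn5 and Defb30, 1.58, 2.44 and 4.57 CPM in those led by Lypd8 and Defb18, and 4.14, 4.31 and 3.48 CPM in those led by Cst12 and Lcn8. At P42, 27 of the 38 UMIs lay in the 812 of 1679 cells led by Cst12 and Lcn8. The Poisson intervals of the 3 groups overlapped in every library, which is no test of a difference, and none was run.

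**Figure D2:**
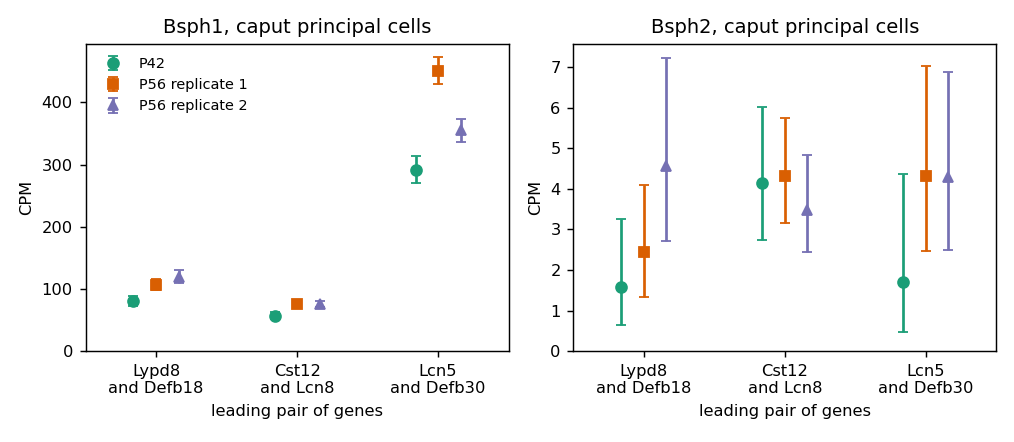
Levels of Bsph1 (left) and Bsph2 (right) in CPM in principal cells of the 3 caput libraries, divided by their leading pair of genes, with 95% Poisson intervals that cover counting error only. Bsph1 is highest in the cells led by Lcn5 and Defb30 in each library (292, 451 and 355 CPM), whereas the Bsph2 intervals of the 3 groups overlap.

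In single cells, a Bsph2 UMI was detected widely in the corpus and a Bsph1 UMI in a minority of caput cells. Thinned principal cells held 835 Bsph1 UMIs in 3006 cells of caput P56 replicate 1. They held 9953 Bsph2 UMIs in 2353 cells of corpus P56 replicate 1. Detection depends on this abundance, so a cell without a UMI is not read as lacking the RNA. With each cell thinned to 2000 UMIs and shallower cells left out, a Bsph1 UMI was found in 14.9% of caput principal cells at P42, 20.3% in P56 replicate 1 and 20.4% in P56 replicate 2, against 35.9%, 42.6% and 45.5% before thinning. A Bsph2 UMI was found in 77.2%, 88.3% and 92.8% of thinned corpus principal cells and in 7.78%, 31.9% and 22.0% of thinned cauda principal cells, in the same order of pools. Before thinning these were 85.7%, 91.3% and 97.7% in the corpus and 10.3%, 54.3% and 41.3% in the cauda. Thinning left out 26, 63 and 5 cells in the caput, 399, 402 and 72 in the corpus and 343, 3 and 0 in the cauda. The share in basal cells, an epithelial type outside the secretory class, was lower in every library, but other gates came closer to principal cells or passed them. It was 4.08%, 8.59% and 6.08% for Bsph1 in the thinned caput (13.9%, 26.4% and 18.3% before thinning). For Bsph2 it was 46.6%, 70.9% and 70.7% in the thinned corpus (71.9%, 89.7% and 85.6% before thinning) and 4.48%, 15.97% and 7.31% in the thinned cauda. Thinned macrophage/monocyte cells, which are not epithelial, held Bsph1 in 3.09%, 15.5% and 14.1% of caput cells and Bsph2 in 42.2%, 64.1% and 84.5% of corpus cells. In gated sperm the thinned share passed that of principal cells for Bsph1 in caput P56 replicate 1 (26.3% of 38 cells) and in the P42 caput, which had 10 sperm, and for Bsph2 in corpus P56 replicate 1 (90.0% of 50 cells). These shares do not assign either RNA to principal cells. Median depth was 6158 UMIs in principal and 6295 UMIs in basal cells.

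Cells with both RNAs were few outside corpus P56 replicate 1. Among thinned caput principal cells, both were found in 2 of 1653, 3 of 3006 and 5 of 2414 cells. Bsph2 was found there in 0.813%, 0.491% and 1.02% of the cells with Bsph1, against 0.355%, 1.17% and 0.624% of those without. With Bsph2 this scarce in the caput, the low counts do not show that the RNAs exclude each other. In corpus P56 replicate 1, 15 of the 24 cells with Bsph1 also held Bsph2 (62.5%), against 88.5% of the cells without Bsph1. In the other corpus libraries 3 cells and 1 cell held Bsph1, none of them with Bsph2.

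Spam1 was scarce, with 121 UMIs among 307987941 deposited, and gated sperm held the largest number. Of these UMIs, 45 lay in the 538 gated sperm cells, 28 in 1276 cells that passed the gates of several types, 20 in barcodes outside the cell limits and 10 in the 20305 principal cells. The gated basal, fibroblast, myoid, endothelial and ciliated cells held 0, which allows up to 0.273 CPM in basal and 0.251 CPM in fibroblast cells. Over all libraries the level was 15.4 CPM in gated sperm (95% Poisson interval 11.2 to 20.6) and 0.0710 CPM in principal cells (0.0341 to 0.131). Spam1 was not among the sperm gate's markers, which were protamines, transition proteins and other late germ cell genes.

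In gated sperm of the caput the Spam1 level was 94.5 CPM at P42 (8 UMIs in 10 cells), 16.5 CPM in P56 replicate 1 (4 UMIs in 38 cells) and 19.9 CPM in P56 replicate 2 (23 UMIs in 169 cells). In the corpus it was 10.8, 13.8 and 2.09 CPM, from 3, 4 and 1 UMIs. In the cauda it was 8.64 CPM at P42 (2 UMIs) and 0 in P56 replicate 2, which allows up to 25.2 CPM. The Poisson interval of that 0 reaches 31.0 CPM. The remaining cauda library, P56 replicate 1, had 5 gated sperm and 0 Spam1 UMIs, and it enters only the sums over libraries. The P42 caput value was the highest, and its interval, 40.8 to 186 CPM, overlapped that of caput P56 replicate 1 (4.49 to 42.1 CPM) but not that of caput P56 replicate 2 (12.6 to 29.9 CPM). Summed over libraries, Spam1 stood at 23.6 CPM in caput sperm (16.5 to 32.9), 7.65 CPM in corpus sperm (3.30 to 15.1) and 4.98 CPM in cauda sperm (0.603 to 17.99), and the segments were not compared by a test.

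Spam1 passed the low-count filter only in the comparison of gated sperm with principal cells, which used the 8 libraries with at least 10 sperm cells and the library as a block. It entered the fit through its sperm counts alone, so its log2 fold change of 6.87 ± 0.77 is a description, and its call, among the 22.1% of all genes called, is not read as a result. Without the P42 pool the value was 6.06, and without P56 replicate 2 it was 8.46. It was higher in sperm in 7 of 8 libraries and 0 in both in the eighth.

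The share of cells with a Spam1 UMI rose with the number of sperm markers in the cell. It was 0.0150% of 26649 cells with no sperm marker, 0.0951% of 12619 cells with 1 to 2 markers, 1.51% of 1453 cells with 3 to 5 and 8.57% of 315 cells with 6 to 11. Median depth was similar in these bins, between 5467 and 5932 UMIs. Set against the RNA of the sperm markers, Spam1 came to 0.799 UMIs per 1000 sperm-marker UMIs in principal cells and to 0.875 in gated sperm. It came to 1.71 in cells of several types. The principal-cell value rests on 10 UMIs, and whether these came from principal cells was not tested.

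**Figure D3:**
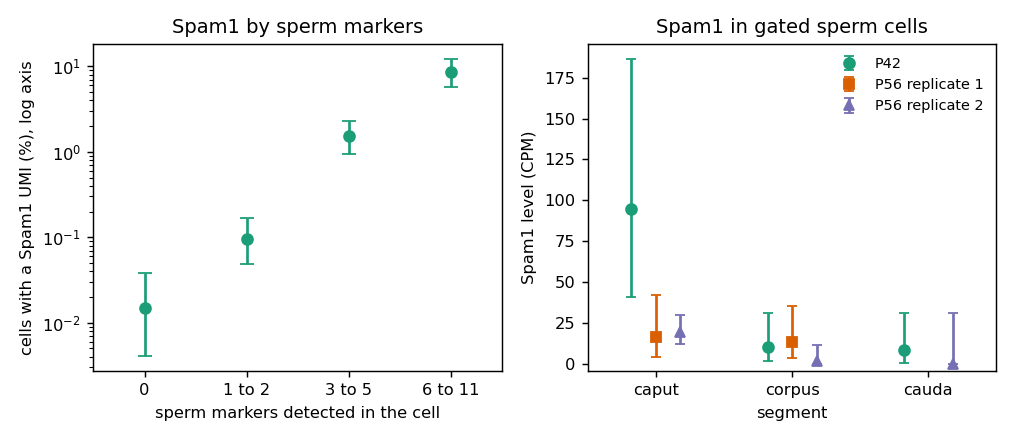
Left, share of cells with a Spam1 UMI (percent, log axis) by the number of sperm markers detected in the cell, with 95% exact binomial intervals, rising from 0.0150% to 8.57%. Right, Spam1 level in CPM in gated sperm of each library with at least 10 such cells, with 95% Poisson intervals; the P42 caput point (94.5 CPM) comes from 10 cells.

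The other cell types held Bsph1 and Bsph2 RNA mostly below the principal level, and so was the RNA of the 16 principal markers. The part of free RNA and of doublets in these levels was not tested. In gated basal cells of the caput, Bsph1 stood at 26.7% to 40.1% of its principal-cell level, while the summed principal markers stood at 24.2% to 40.3% of theirs. In caput clear/narrow cells, Bsph1 stood at 22.5% to 55.2% and the markers at 30.8% to 43.9%. For Bsph2 in the corpus, the range was 39.2% to 44.6% in basal cells (markers 36.4% to 61.7%), 24.5% to 28.9% in clear/narrow cells, below the marker range of 31.3% to 37.8%, and 29.5% to 90.0% in macrophage/monocyte cells (markers 33.9% to 74.2%). In gated sperm the Bsph2 level was 72.5% to 74.3% of the principal level and the markers stood at 65.0% to 84.6%.

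Bsph1 in gated caput sperm stood above the markers in all 3 libraries. It was at 122%, 72.7% and 88.5% of the principal level at P42, P56 replicate 1 and P56 replicate 2, while the principal markers stood at 55.9%, 56.1% and 63.2%. The difference from the markers was not tested, and the P42 value comes from 10 cells. Bsph1 was also above the markers in 1 or 2 caput libraries in the basal, clear/narrow, fibroblast, endothelial, halo/T and ciliated gates, for example at 55.2% against 43.9% in clear/narrow and 80.5% against 67.9% in endothelial cells of P56 replicate 1, and at 178% against 92.5% in the 20 halo/T cells of that library.

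**Figure D4:**
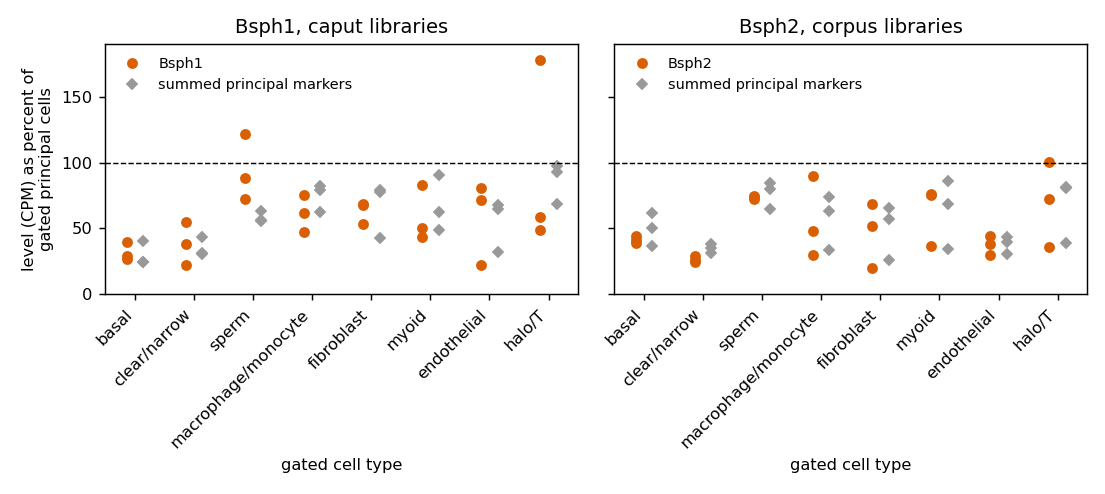
Level of Bsph1 in caput libraries (left) and of Bsph2 in corpus libraries (right) in each gated cell type, as percent of the CPM level in gated principal cells of the same library (orange circles, 1 a library), beside the summed principal markers (grey diamonds). The dashed line marks the principal level, and Bsph1 in sperm (72.7% to 122%) lies above the markers (55.9% to 63.2%) in each library.

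In edgeR's test with the library as a block, Bsph1 was lower in basal cells (log2 fold change -2.13 ± 0.27, edgeR adjusted p = 1.56e-05) and in clear/narrow cells (-1.95 ± 0.21, edgeR adjusted p = 7.15e-06). Basal cells held 206 Bsph1 UMIs in the caput and 2 each in corpus and cauda, so the basal value rests mainly on the caput. These fits use TMM scaling, unlike the CPM percentages above. Without it the median of all genes shifted by 0.47 in basal and 0.42 in clear/narrow cells. Bsph2 was lower in basal cells (-1.72 ± 0.12, edgeR adjusted p = 5.74e-08), in clear/narrow cells (-2.12 ± 0.14, edgeR adjusted p = 4.62e-08) and in macrophage/monocyte cells (-1.24 ± 0.29, edgeR adjusted p = 0.00556). Both of the 2 members tested were thus called in basal and clear/narrow cells, where 21.5% and 22% of all genes were called, and 1 of 2 in macrophage/monocyte cells, where 13.1% were. The Bsph2 call in macrophage/monocyte cells was lost without the P42 pool (-0.76), and the Bsph1 call in basal cells with DESeq2 (-1.30, adjusted p = 0.145). Bsph1 missed the fold threshold in macrophage/monocyte cells (-0.98 ± 0.19, edgeR adjusted p = 0.00197), as did Bsph2 in sperm (-0.96 ± 0.17, edgeR adjusted p = 4.55e-05). Bsph1 in sperm did not pass the test (-0.51 ± 0.27, edgeR adjusted p = 0.139).

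Between ages, 1 of the members' differences passed the test in the main fit. The Bsph2 corpus difference below was called with DESeq2, in all cells and in an additive fit of segment and age. The additive fit gives the same value in every segment, so it also called Bsph2 in the caput. In principal-gated cells of the cauda Bsph2 was higher at P56 than at P42 (log2 fold change 2.55 ± 0.38, edgeR adjusted p = 0.00146), 1 of 2 members tested, where 20.8% of all genes were called. At P42 these gated cells held 19163 CPM of summed fibroblast markers beside 13230 CPM of summed principal markers. The comparison is therefore not one of principal cells alone. In the P42 cauda library 844 of 4464 cells were gated as principal and 2601 were ungated. In the P56 cauda libraries 2508 of 4853 and 2487 of 4860 were principal, with 854 and 903 ungated. The part of these unlike shares in the Bsph2 difference was not tested. The size of the Bsph2 difference in the cauda depended on the scaling and on the cells used. It was 1.73 when TMM factors were set to 1, 3.60 in all cells and 1.54 in an additive fit of segment and age. The corpus difference had the same direction but missed the threshold (log2 fold change 1.28 ± 0.35, edgeR adjusted p = 0.0605, with 5.25% of all genes called). In the caput, with 0.89% of all genes called, neither Bsph1 (0.85 ± 0.57, edgeR adjusted p = 0.484) nor Bsph2 (0.78 ± 0.45, edgeR adjusted p = 0.422) passed. Bsph1 passed neither in the corpus (0.71 ± 1.04, edgeR adjusted p = 0.725) nor in the cauda (-2.64 ± 3.23, edgeR adjusted p = 0.586). Bsph1 changed direction in the corpus without corpus P56 replicate 1 and in the cauda in the additive fit. Each P42 group is 1 library, so the spread comes from the P56 pairs, and age cannot be told apart from the pool.

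The age change of Bsph2 did not pass the test of a difference between segments. The fit held no pool term, so libraries of a pool were treated as independent although they share mice. A fit with the pool as a block was not run for this difference. The difference between the cauda and caput changes was 1.77 ± 0.58 on the log2 scale (edgeR adjusted p = 0.0708), and that between cauda and corpus was 1.27 ± 0.48 (edgeR adjusted p = 0.171). The cauda and caput changes did differ with DESeq2 (1.73, adjusted p = 0.0355) and in all cells (2.24, edgeR adjusted p = 0.0263).

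Other RNA moved with age in the same cells. The summed level of the 16 principal markers in cauda principal cells was 13230 CPM at P42 and 31308 and 34484 CPM at P56, with the chloride channel gene Cftr at 0 in all 3 libraries. The markers moved both ways, with 4 called higher at P56, among them Crisp1 (4.70-fold) and Adam7 (4.03-fold), 5 called lower, among them Cst11 (7.75-fold), and a median log2 fold change of -0.43. The 7 fibroblast markers summed to 19163 CPM at P42 and to 357 and 309 CPM at P56, and all 7 were called lower at P56. The 10 macrophage/monocyte markers summed to 1374 CPM at P42 and to 34.1 and 71.9 CPM at P56, with 9 called lower. Of 8 tested halo/T markers 4 were called lower, from a sum of 61.3 CPM at P42 to 6.36 and 7.51 CPM at P56, as were 3 of 11 sperm, 3 of 9 endothelial and 2 of 6 myoid markers. None of these fibroblast or macrophage markers was at 0 in any library. Markers of other epithelial types were higher at P56, with 5 of 7 basal markers called (sum 54.7 CPM at P42, 119 and 120 CPM at P56) and 4 of 7 clear/narrow markers (142 CPM at P42, 224 and 248 CPM at P56). The part of any of these in the Bsph2 difference was not tested.

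Set against the sum of these markers, which in the cauda adds genes that rose to genes that fell, the P42 value of Bsph2 lay between the P56 values. Bsph2 in cauda principal cells came to 6.53 UMIs per 1000 principal-marker UMIs at P42, 11.9 in P56 replicate 1 and 5.82 in P56 replicate 2. In the corpus the same ratio was 62.9, 62.5 and 74.2. Bsph1 in the caput came to 1.02 at P42, above the 0.942 and 0.925 at P56.

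Genes related by domain, enzyme activity or location were read in the same principal-cell comparisons, from lists without the members. Of 12 genes with fibronectin type II domains, the domain of Bsph1 and Bsph2, 10 were tested between corpus and caput, where 25.4% of all genes were called, and 1 was called, Hgfac, a serine protease that activates hepatocyte growth factor, which was 89.6-fold lower in the corpus (edgeR adjusted p = 3.58e-05). The list's median log2 fold change was 0.14, against 0.02 over all genes tested. Between cauda and corpus 3 of 10 were higher, where 12.2% of all genes were called, led by Hgfac (10.4-fold, edgeR adjusted p = 0.00386) and the gelatinase Mmp2 (8.87-fold, edgeR adjusted p = 0.00731). In the same comparison 2 of 7 fibroblast markers (median log2 fold change 2.18) and 4 of 6 tested myoid markers (1.91) were called higher in principal-gated cells, and their part in the list's change was not tested.

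Of 14 hyaluronan genes, 7 were tested between corpus and caput, 2 were higher and 2 lower, where 25.4% of all genes were called, with a median log2 fold change of -0.62 against 0.02 over all genes tested. The hyaluronan receptor Lyve1 was 4.08-fold higher (edgeR adjusted p = 0.0138) and the transmembrane hyaluronidase Cemip2 2.32-fold higher (edgeR adjusted p = 0.00252). Lyve1 was also 16.7-fold higher in macrophage/monocyte than in principal cells. Of 10 macrophage/monocyte markers, 0 were called between corpus and caput in principal-gated cells. The part of macrophage RNA in the Lyve1 difference was not tested. The hyaluronidase Hyal2 was 2.23-fold lower (edgeR adjusted p = 0.00268) and Hyal1, the lysosomal hyaluronidase, 2.04-fold lower (edgeR adjusted p = 0.0287). Of the hyaluronidase genes near Spam1 on chromosome 6, Hyal4 held 7 UMIs in all segments, 1 of them in gated sperm, and the other two stood higher in gated sperm than in principal cells, with log2 fold changes of 6.07 ± 0.81 for Hyal5 and 6.03 ± 0.75 for Hyal6, given as a description like that of Spam1. Like Spam1, they had most of their sperm UMIs in the caput, with 43, 4 and 0 Hyal5 UMIs and 45, 5 and 0 Hyal6 UMIs in gated sperm of caput, corpus and cauda, beside 35, 8 and 2 for Spam1 in 217, 234 and 87 cells. All cells of caput, corpus and cauda held 116, 24 and 0 Hyal6 UMIs. At these counts its log2 fold change of 3.50 ± 0.71 in macrophage/monocyte against principal cells is likewise only a description.

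Of 17 secreted or surface proteins of the epididymis known to coat or join sperm, 16 were tested between corpus and caput, 7 were higher and 7 lower, where 25.4% of all genes were called, with a median log2 fold change of 0.31. The sperm-coating defensin Defb22 (1192-fold, edgeR adjusted p = 0.000297) and Crisp1 (65.2-fold, edgeR adjusted p = 3.05e-05) were the most increased in the corpus, as Bsph2 was. Cst11 (1231-fold, edgeR adjusted p = 0.000130) and Rnase10 (1181-fold, edgeR adjusted p = 4.20e-05) were the most decreased, as Bsph1 was. Crisp1, Cst11 and Rnase10, like Crisp4, Adam7 and Pate4 of this list, are principal gate markers, so these cells were gated partly on them. Of 18 testicular sperm head and acrosome genes, 8 were tested between corpus and caput principal cells and 2 were higher, Acrbp (8.70-fold, edgeR adjusted p = 7.50e-05) and Zpbp2 (2.32-fold, edgeR adjusted p = 0.0207), with a median of 0.36 against 0.02 over all genes tested. In gated sperm against principal cells these genes, like Spam1, entered the fit by their level in sperm, so no count is read from them. The acrosomal protein genes Spaca3 and Spaca1 had log2 fold changes of 7.50 ± 0.41 and 6.99 ± 0.64 there, beside 6.87 for Spam1.

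The genes whose levels ran most like the members' over 83 points, each a gate of at least 10 cells in 1 library, were sought among 7802 genes by Pearson's r of log2(CPM + 1). These points share libraries, so r is a description. For Bsph1 they were Gm5916 (r = 0.970), Defb20 (0.968) and Clpsl2 (0.959). Gm5916 was at 552 CPM in caput and 0.538 CPM in corpus principal cells. For Bsph2 they were the calmodulin-binding protein gene Nrgn (0.945), Pate1 of the prostate and testis expressed family (0.941) and the defensin gene Defb38 (0.934). Pate1 was at 3.04, 2059 and 379 CPM in principal cells of caput, corpus and cauda. For Spam1 they were Ccdc54 (0.892), 1700019M22Rik (0.889) and 1700013G24Rik (0.888), each at 106 to 157 CPM in gated sperm and below 1 CPM in principal cells.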

How the data were processed

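Per the study's methods, the authors trimmed reads with fastp, extracted barcodes with UMI-tools, aligned with STAR, assigned reads to exons with featureCounts and collapsed UMIs. The submitters' processing notes give STAR 2.7.3a and GRCm38.p6. The authors deposited 1 table of raw UMI counts per gene and barcode. The strand setting is not given in the sources used here. Library numbers were matched to pools through the study's list of samples.

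Cells with 300 to 4000 genes, at most 20000 UMIs and under 50% mitochondrial UMIs were kept (42087 of 44869), those over 10% globin UMIs were removed, and no doublet caller was run. Counts were summed per library and gate and tested with edgeR 4.0.16 (TMM, filterByExpr, quasi-likelihood, Benjamini-Hochberg). SE is the log2 fold change divided by the square root of F. Between the deviations of libraries, r was 0.186 to 0.697 in 9 same-pool pairs and -0.674 to 0.513 in 18 others. These ranges overlap and the pool goes with age, so r is a description. The pairing comes from the shared mice, so the pool was a block between segments. Age was fitted with a mean per segment and age. On simulated counts for corpus against caput, 187 of 200 genes changed 4-fold were recovered among 15957 (93.5%), and for P56 against P42 in the cauda 85 of 200 among 16782 (42.5%). DESeq2 1.42.0, other scaling, filters and gates, and leaving out pools were alternatives.

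The members and lists were chosen with earlier results of these data known. Named list genes are the 2 of largest log2 fold change per direction among those called, given here for the comparisons nearest to the members, and the like genes are the 3 with highest r. Positions and sequences come from GENCODE M21 on GRCm38, which is not the annotation release the authors counted with.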

Additional observations from a re-analysis of the deposited data

Results flagged for a closer look

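Spam1 was also found in barcodes that the comparisons did not use. The 2782 barcodes outside the limits on genes, UMIs and mitochondrial share held 20 Spam1 UMIs, more than the 3 that a count of 0 allows, in 11 barcodes and with at most 6 in 1 barcode. Their level was 0.472 CPM (95% Poisson interval 0.288 to 0.728), and Spam1 came to 1.93 UMIs per 1000 sperm-marker UMIs there, against 0.875 in gated sperm. This difference was not tested.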

How the results depend on the processing

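Of 232 alternatives run on 28 values of the members, 202 kept the direction and the side of the threshold, 16 lost a call (4 of them in an exact permutation test of Spam1 over libraries, which is not read here because libraries of a pool share mice), 10 gained one and 4 changed sign. Bsph1 between cauda and corpus lost its call with DESeq2 (-3.22, adjusted p = 0.0856), with TMM factors set to 1 (-4.02, edgeR adjusted p = 0.0574) and in all cells (-3.52, edgeR adjusted p = 0.0619), and ranged from -4.88 to -1.85 when pools were left out. Bsph2 with age in the caput was called in an additive fit of segment and age (1.54, edgeR adjusted p = 0.0306), which gives the same value for the corpus, where DESeq2 (1.26, adjusted p = 0.0182) and all cells (1.75, edgeR adjusted p = 0.0197) called it too. Bsph1 with age changed sign in the corpus without corpus P56 replicate 1 (-2.13, edgeR adjusted p = 0.127; range over libraries left out -2.13 to 1.58) and in the cauda in the additive fit (0.65). The Bsph1 age change of corpus minus caput was 0.062 in all cells, and Bsph1 in sperm was 0.011 with DESeq2. Bsph1 in basal cells missed the threshold with DESeq2 (-1.30, adjusted p = 0.145). Bsph1 in macrophage/monocyte cells passed the fold threshold with no filter (-1.05) and a stricter gate (-1.01), and ranged from -1.24 to -0.94 over pools left out. Bsph2 there was -0.98 with TMM factors set to 1 and -1.63 to -0.76 over pools left out, missing the fold threshold without P42. The share of caput principal cells with a Bsph1 UMI fell from 41.3% to 18.5% on thinning (means of 3 libraries).

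Without the block for pool or library, Bsph1 between cauda and corpus was -3.97 (edgeR adjusted p = 0.0530), and Bsph2 was -1.60 in basal (0.387), -2.19 in clear/narrow (0.211) and -0.90 in macrophage/monocyte cells (0.727). Without it 679 genes were called in sperm, 1187 in basal, 1484 in clear/narrow and 643 in macrophage/monocyte cells; it ended no other call of a member that could be fitted. Spam1 in sperm and Bsph1 in basal, clear/narrow and macrophage/monocyte cells were below the filter without the block.

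Genes called ranged over pools left out from 2320 to 4902 between corpus and caput, 317 to 2885 between cauda and corpus, 2200 to 5048 between cauda and caput, 98 to 142 and 279 to 531 with age in caput and corpus, and 1148 to 2082 in macrophage/monocyte cells. With no filter they were 3050 between cauda and corpus, 35 and 472 with age in caput and corpus and 5350 in sperm. In all cells 715, 2262 and 6857 were called with age in caput, corpus and cauda, and 1130 in the additive fit. With TMM factors set to 1, 747 and 2209 were called with age in caput and corpus. That scaling shifted the median of all genes by -0.35, -0.54 and -0.76 with age in caput, corpus and cauda, by 0.43, 0.47, 0.42 and 0.21 in sperm, basal, clear/narrow and macrophage/monocyte cells and by -0.16 between cauda and caput. The share of calls that were higher moved from 45%, 25.2% and 38.8% to 9.91%, 3.35% and 4.29% with age and from 80.3%, 47%, 41.3% and 80.1% to 98.7%, 74.6%, 68.9% and 95.9% in the 4 types. With DESeq2 it was 55.9% with age in the caput and 98.9% in sperm.

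Depth limits Spam1, with 1 to 23 UMIs in the sperm of the libraries where it was found, and Bsph1 outside the caput, with 0 to 85. Each P42 group is 1 library. Several principal markers are genes of 1 duct region, so the principal gate may hold unlike shares of the cells of each segment, and 6439 of its 20305 cells lay near its limit.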
